A study of Rattus norvegicus with 9 samples.

Results

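Cytosolic ribosomal proteins are the protein parts of the ribosomes that translate nuclear mRNAs. They were followed in left ventricles of adult male SD rats at day 28, with 3 rats each in group Sham (operated without infarction, saline by gavage), group MI (ligation of a coronary artery, saline by gavage) and group MI + DAPA (1st d) (the same ligation, with the SGLT2 inhibitor dapagliflozin by daily gavage from the first day; below, the DAPA group). The study calls the Sham tissue normal myocardium and the tissue of both other groups infarct myocardium, and the drug was not given to Sham rats. Its Methods state that molecular work mainly took the border of the infarct, with the scar cut away, and matching parts of Sham hearts. For RNA-seq they name left ventricles without giving the site. Each rat's label carries a pair of codes whose meaning is not given. The members were taken by name alone, as the rows named Rpl or Rps with a number, Rplp0, Rplp1, Rplp2 or Rpsa, without Rpl3 and Rpl3l, and with 1 row per name. This gave 68 genes from 74 rows among the 35843 genes of the deposited FPKM table, 41 of the large subunit with its stalk and 27 of the small subunit. FPKM stands for fragments of a gene scaled to its length and to the depth of the library, so that levels can be set beside each other between genes. The deposited values also carried a scaling of the authors between libraries (below), on which comparisons between rats depend. Rpl10a and Rpl23a were listed at 0 in all 9 rats and could not be tested, and the remaining 66 genes were tested in each comparison. Rps9, Rps13, Rps14, Rps26, Rpl22, Rpl35a, Rpl37 and Rpl38 were not analysed here.

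Each ribosome holds 1 copy of almost every ribosomal protein, and the stalk of the large subunit, built on Rplp0 with Rplp1 and Rplp2, recruits the elongation factors. The mRNAs of these proteins begin with a run of pyrimidines, the 5′ terminal oligopyrimidine (TOP) tract, through which mTORC1 and the RNA-binding protein Larp1 control their translation and stability. In the heart, ribosome supply is one of the limits on the growth of cardiomyocytes, while dividing fibroblasts and immune cells also make large amounts of ribosomal protein mRNA. Levels of mRNA in whole tissue do not show how much of each protein was made.

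The starts of the genes that rose or fell in MI vs. Sham at the threshold given below are shown, for each gene named here whose start the RefSeq table holds, with the longest unbroken run of C or T in capitals, where it has at least 7 letters. Each line gives 15 bases before and 15 bases from the start of the gene in RefSeq (build GRCr8), 5′ to 3′ on the strand of the gene. Rps2, Rplp0, Rpl6 and Rps16 are the 4 genes that rose in group MI, and the other 8 genes fell.
Rps2 (chr10:14251833-14251862, + strand): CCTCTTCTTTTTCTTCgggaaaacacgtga
Rplp0 (chr12:46718376-46718405, - strand): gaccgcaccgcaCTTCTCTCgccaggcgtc
Rpl6 (chr12:41011676-41011705, - strand): tatttttacatcactagatggcgggtgaaa
Rps16 (chr1:92770643-92770672, + strand): cctggaaaatcggtcggggtggccccaagc
Rps21 (chr3:187724023-187724052, + strand): gaacgagccaCTTCCTTTCTgtgttctccg
Rps28 (chr7:15311319-15311348, - strand): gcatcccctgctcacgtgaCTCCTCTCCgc
Rpl35 (chr3:43165907-43165936, - strand): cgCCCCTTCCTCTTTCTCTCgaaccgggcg
Rpl31 (chr9:49143096-49143125, + strand): ccacaatccctcgcgCCTTTCCTTTCCaac
Rpl26 (chr10:54109677-54109706, + strand): ctcgtgtcaacttacagaaccggaagtcgc
Rpl11 (chr5:153560788-153560817, - strand): ggggacttgaagcttgtttggtgctgggga
Rplp2 (chr1:205975906-205975935, + strand): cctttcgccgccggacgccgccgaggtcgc
Rps19 (chr1:89608673-89608702, + strand): cccgacttgtgcgcccgggaaaccccgtcg

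The RefSeq table held the starts of 53 of the 68 genes. Such a run was found at 39 of these 53 starts (73.6%), against 5986 of all 33469 starts in the table (17.9%). It was present in both directions of change, at 2 of the 4 genes that rose, 4 of the 8 genes that fell and have a start in the table, and 33 of 41 other members. The letters CTTCCGG, the core bound by ETS factors, lay on either strand of the window from 250 bases before to 50 bases after the start in 17 of 53 members (32.1%) and in 8.75% of all windows. A match is a description of the letters, and the annotated start may differ from the one used in these hearts.

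The ribosomal protein mRNAs were among the most abundant outside the mitochondrial genome. Their FPKM summed to 9.50% to 13.1% of the total without the 13 protein genes of the mitochondrial genome, and 58 of the 66 stayed above 100 FPKM in every rat. Rpl41, which encodes a peptide of the large subunit that is among the smallest known, was the most abundant by mean, with 1976 ± 157 FPKM in Sham, 2040 ± 197 in MI and 2510 ± 738 in DAPA hearts (SD, n = 3). The acidic stalk protein gene Rplp1 came next, at 1782 ± 62.2 FPKM, 2143 ± 106 and 2588 ± 1004 in the same order (SD, n = 3). After it came Rps15, a gene of the small subunit, at 1729 ± 142, 1425 ± 79.2 and 1566 ± 401 FPKM (SD, n = 3). Rps4x, the small-subunit gene on the X chromosome, read 571 ± 45.8, 613 ± 30.6 and 665 ± 163 FPKM (SD, n = 3). At the other end stood Rpl8, Rpl13a and Rps6. Rps6, whose protein is the classical substrate of S6 kinase, read 41.0, 16.9 and 22.6 FPKM in the Sham rats, 29.8, 17.4 and 40.9 in the MI rats and 77.8, 17.9 and 14.2 in the DAPA rats. Rpl13a, known from the translational control of inflammatory mRNAs, stood at 23.2 ± 6.61 FPKM in Sham and at 17.6 ± 0.0662 in MI hearts (SD, n = 3). Rpl8 was at 8.05 to 34.6 FPKM over the 9 rats. The 5 members Rpl39, Rpl7a, Rps6, Rpl13a and Rpl8 had a mean below 50 FPKM. Every ribosome needs these proteins. Near-identical copies of ribosomal protein genes are common in the rat genome, how the authors counted reads that match several copies is not given in the sources used here, and the levels of these genes are uncertain for that reason.

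The libraries differed in their makeup. From the steps of the FPKM values, 13597239 to 17210909 reads per rat were recovered, of which 293772 to 714989 fell on members. The 13 protein genes of the mitochondrial genome took 59.9% to 65.7% of reads in group Sham, 6.93% to 18.7% in group MI and 17.1% to 31.6% in the DAPA group. All 14 cardiomyocyte markers were detected, and their summed FPKM ran from 9390 to 13459 in Sham, from 3168 to 16107 in MI and from 12738 to 26490 in DAPA hearts. The 10 fibroblast markers summed to 447 to 740, 3852 to 7633 and 2408 to 4138 FPKM, and the 10 macrophage markers to 164 to 519, 1982 to 3601 and 1088 to 2036 FPKM in the same order. The 6 endothelial markers found summed to 887 to 1068, 238 to 315 and 328 to 369 FPKM. T cell, B cell and plasma cell markers stood high in MI rat 2, at 124 and 3822 FPKM, against 10.1 to 33.1 and 6.07 to 664 in the other rats. The smooth muscle, erythroid and adipocyte markers summed to 292 to 1357, 5.62 to 3066 and 17.0 to 220 FPKM over the 9 rats, and the neutrophil markers reached 173. Sham tissue was thus compared with tissue of infarcted hearts that had another cell mix. The part of that mix in the values below was not tested, and fewer cells of a type cannot be told apart from less RNA per cell.

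In group MI vs. group Sham, the mRNAs of the ribosomal proteins moved little and in both directions on the scaling of the authors. Nearly all were higher when each rat was rescaled to a common sum, a setting that also shifted the median over all genes to 1.301 (below). Rps2, Rpl6, Rplp0 and Rps16 rose by 1.40-fold to 1.87-fold. Among the members that fell, Rps19, Rps28, Rps21, Rpl26, Rpl32, Rpl31, Rpl11 and Rpl35 went to between 0.499 and 0.691 of the Sham mean and Rplp2 to 0.0480 of it. In all, 4 (6.06% of 66) and 10 (15.2%) members were higher and lower in limma at a Benjamini-Hochberg adjusted p under 0.05, a level that 19.5% of the 13485 genes tested passed upward and 19.5% downward. Below, rose and fell are used of this threshold. At an unadjusted p under 0.05, 4 members were higher and 17 lower, against 24.5% and 24.4% of all genes. With the fold criterion of the study added (an absolute log2 fold change over 1), 0 members were higher and only Rplp2 was lower, against 12.1% and 10.3% of all genes. The median log2 fold change over the 66 members was -0.16, with an interquartile range of -0.37 to 0.06, beside a median of -0.01 and a range of -0.50 to 0.54 over all genes tested. A log2 fold change within 0.5 of 0 was seen in 77.3% of members and 48.8% of all genes.

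**Figure D1:**
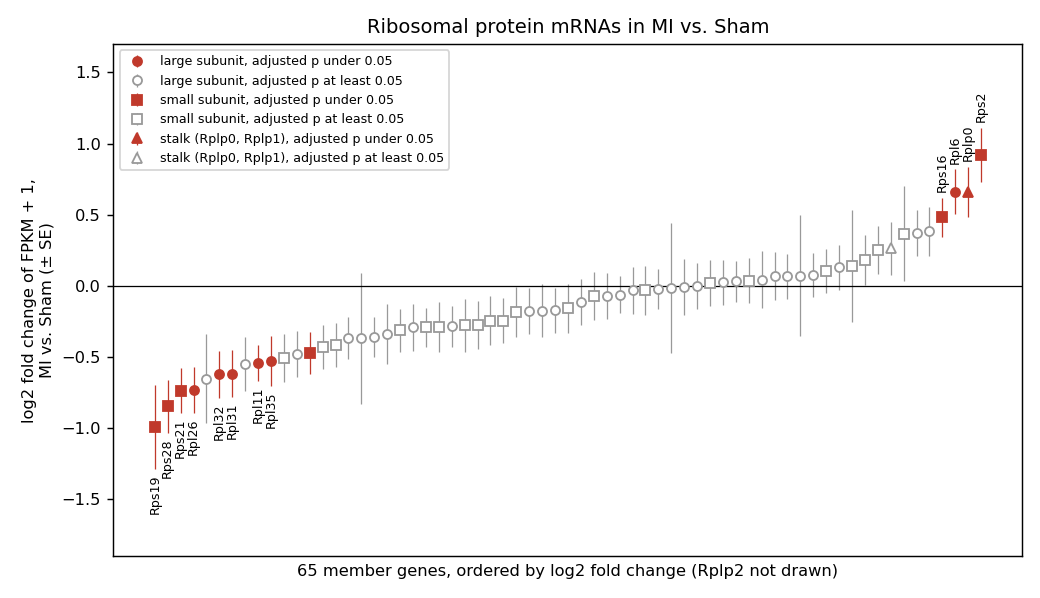
Log2 fold change of FPKM + 1 in group MI vs. group Sham for 65 member genes, ordered by value, with the standard error as a bar and the subunit as the symbol. Filled red symbols have an adjusted p under 0.05, with 4 genes above 0 and 9 below; Rplp2, at -4.58, is not drawn. Rescaled to a common sum, 63 members were higher and 1 was lower, where the median over all genes tested shifted to 1.301.

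The gene with the largest rise was Rps2, which encodes a protein at the entry of the mRNA channel of the small subunit. Rps2 (ENSRNOG00000014179) read 453, 436 and 315 FPKM in the Sham rats, 773, 744 and 736 in the MI rats and 959, 764 and 618 in the DAPA rats. All 6 infarcted hearts lay above all 3 Sham hearts. Its log2 fold change in MI vs. Sham was 0.92 ± 0.19 (SE, adjusted p = 0.00959, n = 3 per group, limma). Rpl6, a large-subunit protein, read 410, 421 and 393 FPKM in the Sham rats, 641, 719 and 585 in the MI rats and 732, 620 and 476 in the DAPA rats. Again no infarcted heart fell within the Sham range, and the log2 fold change in MI vs. Sham was 0.66 ± 0.16 (SE, adjusted p = 0.0161, limma). Rplp0, the base of the stalk and a common reference gene in qPCR, read 1031, 880 and 918 FPKM in the Sham rats. Its values were 1508, 1569 and 1399 FPKM in the MI rats and 1864, 1631 and 1146 in the DAPA rats, a log2 fold change of 0.66 ± 0.18 in MI vs. Sham (SE, adjusted p = 0.0233, limma). Rps16, a small-subunit protein near the decoding site, read 361, 359 and 337 FPKM in the Sham rats, 481, 508 and 486 in the MI rats and 584, 575 and 416 in the DAPA rats. It differed between group MI and group Sham by 0.48 ± 0.14 on the log2 scale (SE, adjusted p = 0.0324, limma), a call that was lost when any 1 of the 6 rats was left out (adjusted p = 0.0596 to 0.104), with the replicate block (0.0766) and with all 9 rats in the fit (0.0575).

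Among the genes that fell, Rps21 (ENSRNOG00000060449), which encodes a small protein of the small subunit, read 1187, 1179 and 1104 FPKM in the Sham rats, 698, 685 and 699 in the MI rats and 867, 983 and 606 in the DAPA rats. The log2 fold change in MI vs. Sham was -0.73 ± 0.16 (SE, adjusted p = 0.0112, limma). Rpl26, whose protein sits near the exit tunnel and also binds the mRNA of p53, read 840, 950 and 1000 FPKM in the Sham rats and 563, 556 and 554 in the MI rats. Its DAPA values were 812, 711 and 433 FPKM, spanning the MI range, and its log2 fold change in MI vs. Sham was -0.73 ± 0.16 (SE, adjusted p = 0.0118, limma). Rps28, another small protein of the small subunit, read 497, 566 and 378 FPKM in the Sham rats, 263, 256 and 271 in the MI rats and 292, 335 and 259 in the DAPA rats. No infarcted heart reached the lowest Sham value, and the log2 fold change in MI vs. Sham was -0.85 ± 0.19 (SE, adjusted p = 0.0123, limma). Rpl11, which with Rpl5 binds Mdm2 when ribosome assembly is disturbed, read 154, 167 and 169 FPKM in the Sham rats, 110, 111 and 114 in the MI rats and 152, 147 and 96.7 in the DAPA rats. Its log2 fold change in MI vs. Sham was -0.54 ± 0.13 (SE, adjusted p = 0.0147, limma). Rpl5, its partner, stood at 683 ± 24.1 FPKM in Sham and 748 ± 50.5 in MI hearts (SD, n = 3), with an adjusted p of 0.545. Rpl32, Rpl31 and Rpl35 also fell, with log2 fold changes of -0.62, -0.62 and -0.53. The call of Rpl35 was lost without any 1 rat (adjusted p = 0.0623 to 0.149) and under 6 other alternatives, the replicate block among them (0.101).

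**Figure D2:**
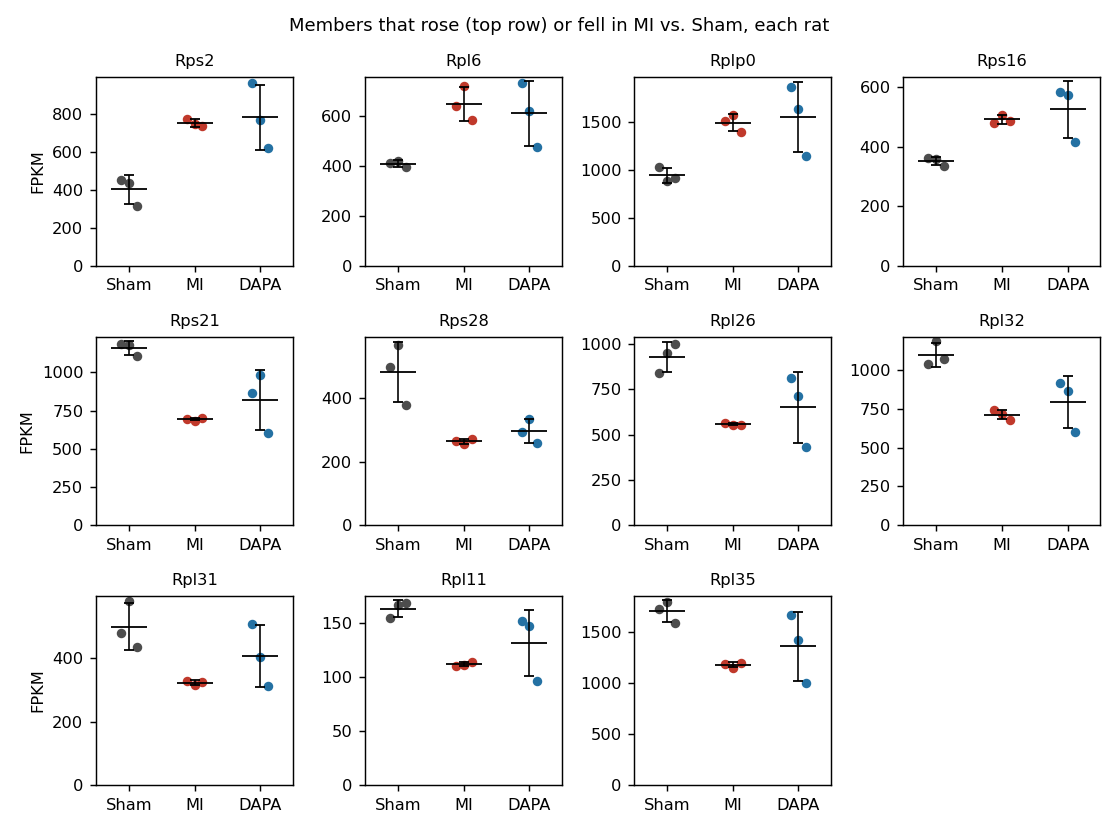
FPKM in each rat (points; DAPA stands for the DAPA group) with the group mean and SD (bars, n = 3) for 11 members that rose (top row) or fell in MI vs. Sham, each axis from 0. In each of the 11 genes the MI rats lay apart from the Sham rats, and DAPA rat 3, the right-hand point of its group, was the lowest DAPA rat.

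Counted without a test, 9 members had all 3 MI rats above all 3 Sham rats (27.1% of all genes tested did) and 28 had all 3 below (27.5%). The 5 higher ones that did not pass the adjusted threshold were Rpsa, Rplp1, Rps3a, Rpl10 and Rpl15, with log2 fold changes of 0.18, 0.27, 0.25, 0.38 and 0.37. Rpsa is known both as a small-subunit protein and as a laminin-binding protein. For a single gene the two-sided exact permutation test with 3 rats against 3 cannot go below p = 0.1, so the tests here rest on the spread that limma shares between genes. The least changed members were Rpl14, Rpl13 and Rpl21. Rpl14 read 761 ± 66.4 FPKM in group Sham and 759 ± 18.7 in group MI, and Rpl13 1078 ± 152 and 1069 ± 106 (SD, n = 3). Rpl21, the last of them, had a log2 fold change of -0.01 but a standard error of 0.46, so that its change was poorly bounded. Rps25, which some viral RNAs need to engage the small subunit, had a log2 fold change of -0.43 ± 0.15 (SE) and an adjusted p of 0.0639.

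By subunit, the median log2 fold change in MI vs. Sham was -0.07 over the 39 large-subunit genes tested, of which 2 rose and 6 fell, and -0.24 over the 27 small-subunit genes, of which 2 rose and 4 fell. Shorter genes were more often lower. The 33 members of up to 700 bases had 7 positive and 26 negative values, with a median of -0.42 in the 18 of up to 500 bases and -0.18 in the next 15. The 33 longer members had 16 positive and 17 negative values. The 4 genes that rose were 882 to 1793 bases long, and the 10 that fell were 246 to 3845 bases long with a median of 534. Over the 66 members Spearman's rho between length and log2 fold change was 0.33, and 0.30 without Rplp2. Over all 13470 genes tested with a recovered length, rho was 0.03, yet genes of up to 500 bases had a median of -0.23 there too. The genes share their libraries and are not independent, and no test was made of the relation.

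**Figure D3:**
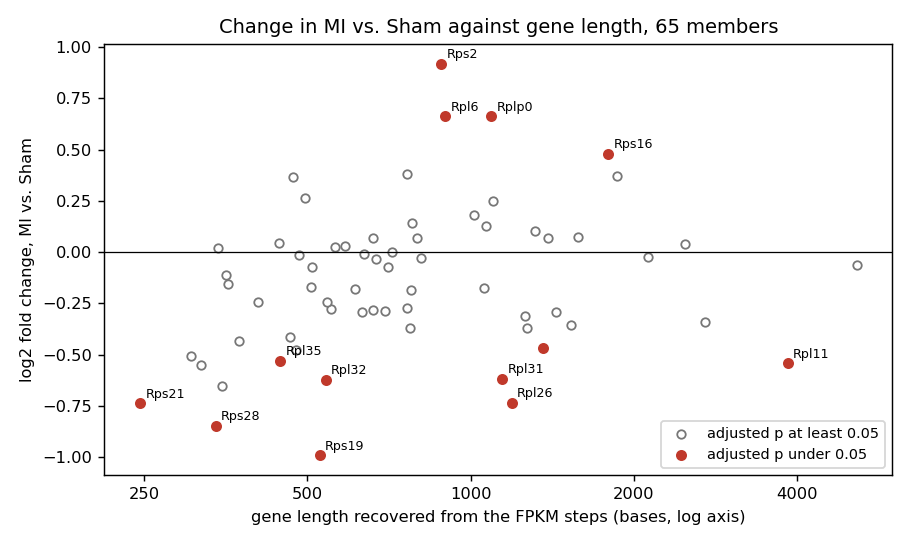
Gene length in bases (log axis) against the log2 fold change in group MI vs. group Sham for 65 members, with filled red points at an adjusted p under 0.05; Rplp2 (348 bases, -4.58) is not drawn. The points to the left of 500 bases lie mostly below 0, while the 4 genes that rose lie between 882 and 1793 bases.

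The count in MI vs. Sham was smaller in every fit without 1 rat. Such a fit has fewer rats and less power, so a smaller count does not show that it rested on single rats. The share of all genes that passed in these fits was not counted. The median log2 fold change of the members stayed between -0.205 and -0.132 in them. With 1 rat left out, the 14 members that passed became 9, 7 and 7 without Sham rats 1, 2 and 3, 3 and 9 without MI rats 1 and 3, and 10 without MI rat 2. The calls of Rps2, Rps28 and Rplp2 held in all 6 of these fits, those of Rps21 and Rpl26 in 5, Rpl6 and Rpl11 in 4, Rplp0 in 3, and Rpl31 and Rpl32 in 2. The calls of Rplp0, Rpl31 and Rpl32 were also lost with the replicate block (adjusted p = 0.0553, 0.0531 and 0.0556). Leaving out the mitochondrial protein genes lost these calls too (0.0528, 0.0661 and 0.0862). Those of Rplp0 and Rpl32 were lost with no filter (0.0921 and 0.0697), and those of Rpl31 and Rpl32 centred on the members (0.0603 and 0.0518). When the FPKM of each rat were rescaled to a common sum, which counts the mitochondrial mRNAs, all genes shifted upward by a median log2 fold change of 1.301 and the members by 1.39, so that 63 members were higher and 1 was lower. Relative to the median over all genes, the members then read 0.09 above instead of 0.16 below. Rescaling multiplies all genes of a rat by the same factor, so it does not itself move the members relative to other genes. The filter and the 1 added before the log were applied after the rescaling and weigh differently on low genes.

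Some members varied widely between rats of a group. The SD was over 25% of the mean in 9 members in Sham, 5 in MI and 25 in the DAPA group, Rplp2 and Rps19 among them. Rplp2, the partner of Rplp1 in the stalk, read 569, 356 and 675 FPKM in the Sham rats, 14.9, 50.8 and 11.2 in the MI rats and 178, 480 and 14.1 in the DAPA rats. The MI rats lay below all Sham rats, while 1 DAPA rat lay within the Sham range and 1 within the MI range. The log2 fold change in MI vs. Sham was -4.58 ± 0.54 (SE, adjusted p = 0.00157, limma), and the row rested on 75 to 2684 reads per rat. Rplp1 did not share this pattern, with 1729 to 1851 FPKM in the Sham rats and 2051 to 2258 in the MI rats. Rps19, the gene most often mutated in Diamond-Blackfan anaemia, read 330, 253 and 175 FPKM in the Sham rats, 88.8, 132 and 157 in the MI rats and 162, 347 and 157 in the DAPA rats. The MI rats were below the Sham rats, at a log2 fold change of -0.99 ± 0.30 (SE, adjusted p = 0.0350, limma). This call was lost in 4 of the 6 fits without 1 rat (without Sham rat 1 or 2 or MI rat 1 or 2, the highest adjusted p being 0.106). It was also lost with the replicate block (0.0778), with no filter (0.0715) and with all 9 rats (0.0534). The same held without the mitochondrial protein genes (0.0504) and centred on the members (0.0533). Its relative Rps19l2, named after its values were seen, read 189, 339 and 274 FPKM in the Sham rats, 151, 130 and 103 in the MI rats and 131, 83.8 and 65.3 in the DAPA rats.

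Of the 4 names with several rows, Rps27a varied the most in the row kept. Its protein is made as a fusion with ubiquitin. The row kept read 687, 713 and 1532 FPKM in the Sham rats, 1259, 997 and 1284 in the MI rats and 691, 1645 and 399 in the DAPA rats, while the second row read 852, 903 and 279, then 233, 373 and 293, and then 1313, 285 and 678. In Sham rat 3, DAPA rat 2 and all MI rats the row kept was high and the other low. In Sham rats 1 and 2 and DAPA rats 1 and 3 the second row was the higher one. Their sum was steadier, at 1656 ± 140 FPKM in Sham, 1480 ± 104 in MI and 1670 ± 515 in DAPA hearts (SD, n = 3). Rpl21 had 4 rows, and summing them lowered the ratio of the highest to the lowest rat from 3.33 to 1.72. With rows of the same name summed, an alternative chosen after seeing the data, 16 members passed the adjusted threshold in MI vs. Sham, 4 higher and 12 lower. Copies under other names were not summed, so the values of Rplp2 and Rps19 are uncertain.

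**Figure D4:**
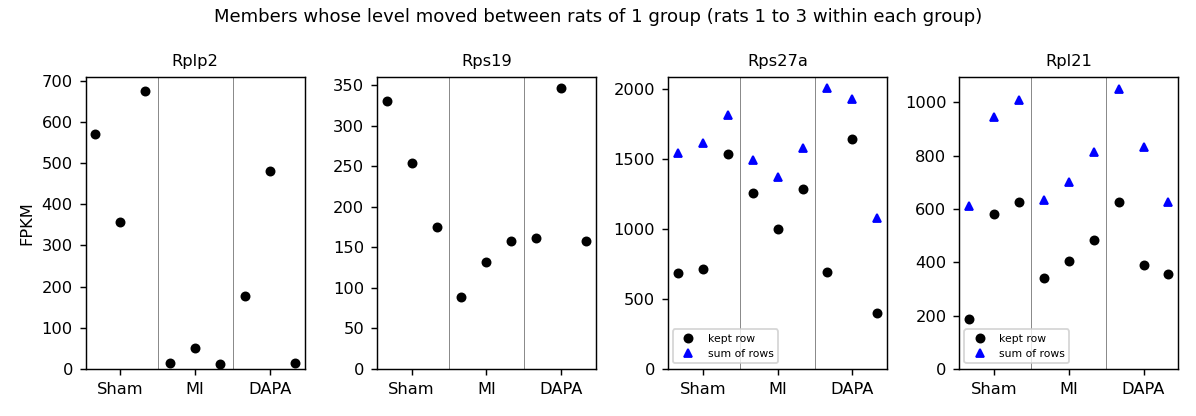
FPKM in each of the 9 rats (rats 1 to 3 from left to right within each group, DAPA for the DAPA group) for Rplp2, Rps19, Rps27a and Rpl21, with the sum of the rows of the same name as blue triangles for the last pair. Rplp2 lies at 11.2 to 50.8 FPKM in the MI rats and at 14.1 to 480 in the DAPA rats, and the sums for Rps27a vary less than the row kept.

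In DAPA vs. MI no member passed, and the 3 treated rats did not share a level. Higher and lower members numbered 0 and 0 at an unadjusted p under 0.05, where 4.59% and 3.90% of the 13251 genes tested passed. They also numbered 0 and 0 with the fold criterion (0.951% and 1.11% of all genes) and at the adjusted threshold (0.00% and 0.00%). The median log2 fold change of the members was 0.13, with 56 positive and 10 negative values, beside -0.02 over all genes tested, and it turned to -0.23 when the rats were rescaled to a common sum, where all genes stood at -0.34. Rps19 alone had its DAPA rats all above its MI rats (6.63% of all genes did), and 0 members had them all below (7.16%). The closest Rps19 values were nearly equal, at 157.4 FPKM in DAPA rat 3 and 157.2 FPKM in MI rat 3. The 8 members with the largest values were Rplp2 (2.34), Rps19 (0.75), Rps27a (-0.61), Rpl7a (-0.38), Rpl31 (0.31), Rpl36a (0.27), Rpl29 (0.27) and Rpl12 (0.27). Their standard errors ran from 0.22 for Rpl31 to 1.24 for Rplp2. The values of Rps27a and Rpl7a are those of the row kept. Summed over rows of the same name, Rps27a read 1480 ± 104 FPKM in MI and 1670 ± 515 in DAPA hearts (SD, n = 3). The summed rows of Rpl7a read 78.62 ± 25.55 and 77.53 ± 29.31 FPKM (SD, n = 3), so neither fall was seen in the sums. Rpl17 and Rps3a had values near 0, at -0.00 and -0.01, with standard errors of 0.23 and 0.26.

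The spread within the treated group was shared by nearly all members. DAPA rat 1 lay above all 3 MI rats in 63 of 66 members and DAPA rat 2 in 55, while DAPA rat 3 lay below all 3 MI rats in 58. In 48 members rats 1 and 2 were above and rat 3 was below the whole MI range. DAPA rat 3 was the lowest DAPA rat in 65 members and the lowest of all 9 rats in 48, and DAPA rat 1 was the highest of all 9 in 37. These counts were not made over all genes, so they have no share to be set beside. Against the mean of the MI rats, the median member stood at 0.40 in DAPA rat 1, at 0.29 in rat 2 and at -0.30 in rat 3 on the log2 scale, where the median over all genes tested was -0.03, -0.02 and -0.00.

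The FPKM of the members summed to 58973, 55019 and 35725 in the DAPA rats, to 44368, 45178 and 44059 in the MI rats and to 49925, 49867 and 47591 in the Sham rats. The MI rats were thus the most alike. The median percentage SD of a member was 4.96% in group MI, 7.88% in group Sham and 23.4% in the DAPA group, beside 16.6%, 20.6% and 19.4% over all genes. It was below 10% in 56, 43 and 0 of the 66 members in the same order.

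**Figure D5:**
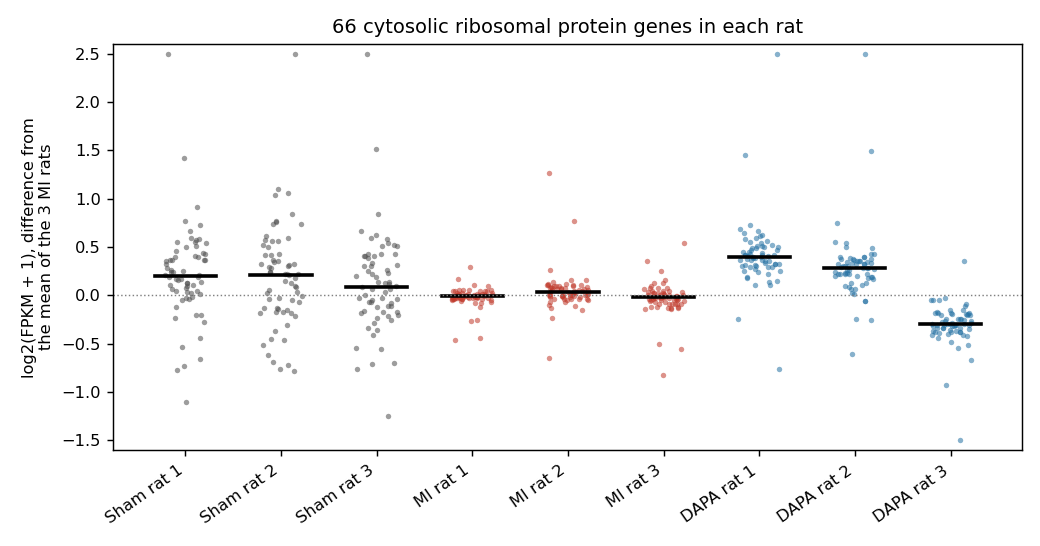
Difference of log2(FPKM + 1) from the mean of the 3 MI rats for 66 members (points) in each of the 9 rats, with the median as a black line; DAPA stands for the DAPA group, and 6 points beyond the axis are drawn at its edges (-1.5 and 2.5). The medians of DAPA rats 1 and 2 stand at 0.40 and 0.29 and that of DAPA rat 3 at -0.30, while the MI rats lie close to 0.

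Other values moved along with DAPA rat 3. It had the fewest recovered reads of the group (14641593, against 16146281 and 16833876), the smallest share on the mitochondrial protein genes (17.1%, against 26.8% and 31.6%), the lowest summed cardiomyocyte markers (12738 FPKM, against 23322 and 26490) and the highest fibroblast markers (4138, against 2408 and 3012). Their part in the low member levels was not tested. Without DAPA rat 3, 11 members were higher at an unadjusted p under 0.05 in limma, 0 were lower, and 0 passed the adjusted threshold. The share of all genes that passed in that fit was not counted. The median log2 fold change of the members was 0.33 there, beside -0.02 over all genes tested. Without DAPA rat 1 it was -0.01, and without DAPA rat 2 it was 0.06.

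In DAPA vs. Sham, Rps2 rose and Rps28 fell, the latter turning to 0.50 when rescaled to a common sum. These were 1 and 1 of 66 members at the adjusted threshold, against 14.5% and 14.1% of the 13359 genes tested. At an unadjusted p under 0.05, 4 members were higher and 1 was lower (21.1% and 20.4% of all genes), and with the fold criterion 0 and 0 (9.54% and 8.16%). This comparison uses the same Sham rats as MI vs. Sham. The log2 fold change of Rps2 was 0.95 ± 0.25 (SE, adjusted p = 0.0260, limma), and that of Rps28 was -0.69 ± 0.22 (SE, adjusted p = 0.0490, limma). The call of Rps28 was lost when any 1 rat was left out (adjusted p = 0.0543 to 0.139), with the replicate block (0.0503), a pseudocount of 0.1 (0.0502), no filter (0.0837) and centred on the members (0.0558). That of Rps2 was lost without Sham rat 2 or 3 or DAPA rat 1 or 2 (the highest adjusted p being 0.101) and with no filter (0.0578). Rplp0, Rps16 and Rpl6 had values of 0.69, 0.56 and 0.56, with adjusted p of 0.0835, 0.0741 and 0.0900. The median member stood at -0.04, beside 0.01 over all genes, and at 1.15 beside 1.00 when rescaled. As in MI vs. Sham, the rescaling by itself moves all genes of a rat alike. Without DAPA rat 3, 7 members rose and 0 fell, with a median of 0.16 beside 0.0 over all genes tested. Without Sham rat 2, Sham rat 3 or DAPA rat 1, none passed in limma, while 1, 3 and 4 had an unadjusted p under 0.05. The share of all genes that passed was not counted in these fits.

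Genes that work with the ribosomal proteins gave mixed values in MI vs. Sham on the scaling of the authors. The counts of each list stand beside 19.5% of all genes tested that rose and 19.5% that fell. Rack1 and Fau, ribosomal proteins under other names, had values of 0.37 and -0.06 with adjusted p of 0.0949 and 0.883. Of 6 paralogs tested, Rps4y2 fell (-1.81, adjusted p = 0.00998, limma), and Rpl10l, Rpl7l1 and Rps27l had values of 0.87, 0.65 and 0.23 that did not pass. Of 16 translation factors and other genes with TOP mRNAs, 6 rose and 1 fell, with a median of 0.32. Pabpc1, the poly(A)-binding protein, rose from 91.3 ± 12.6 to 194 ± 39.5 FPKM (SD, n = 3; adjusted p = 0.00615, limma). The histone chaperone Nap1l1 and the nucleolar protein Npm1 rose by 0.77 and 0.58 on the log2 scale, and Naca, part of the complex on nascent chains, fell by 0.73 (adjusted p = 0.00523, limma). In DAPA rat 3, 15 of these 16 genes lay below the mean of the MI rats, with a median of -0.35, against 0.16 and 0.18 in DAPA rats 1 and 2.

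Of 30 ribosome biogenesis genes tested, 4 rose and 2 fell in MI vs. Sham, with a median log2 fold change of 0.09. For this list and the next ones, 19.5% of all genes tested rose and 19.5% fell. Dkc1, the pseudouridine synthase of rRNA, fell from 92.8 ± 7.28 to 42.7 ± 3.60 FPKM (SD, n = 3; adjusted p = 0.00185, limma). Nucleolin (Ncl), Rrs1 and Pno1, which act in pre-rRNA processing and subunit assembly, rose by 0.76, 0.84 and 1.32 on the log2 scale. Of 13 genes of mTORC1, Larp1 and S6 kinase control, 2 rose and 5 fell. Eif4ebp2 and Eif4ebp1, the inhibitors of the cap-binding protein Eif4e that mTORC1 inactivates, rose by 1.58 and 1.36 on the log2 scale (adjusted p = 0.00155 and 0.0143, limma). Rps6kb2, an S6 kinase, and Tsc2, an inhibitor of mTORC1, fell by 1.23 and 0.71. Of 7 muscle elongation and initiation factors, Eif4g1 and Eif5a rose by 1.10 and 0.65. Eef1a2, the elongation factor of muscle and neurons, had a value of 1.41 with an adjusted p of 0.0522, and Eif4a2 one of -0.19.

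In DAPA vs. MI, 0 genes of these 6 lists passed at an unadjusted p under 0.05 in limma apart from Eif4ebp2, which was lower by 0.50 on the log2 scale (unadjusted p = 0.0450, limma). The ribosomal proteins of mitochondria, which are encoded in the nucleus and translate the mitochondrial genome, are listed for comparison. In MI vs. Sham 2 of 73 rose and 19 fell, with a median of -0.38, where 19.5% of all genes tested rose and 19.5% fell. In DAPA vs. MI, 28 of 73 were higher and 0 lower at an unadjusted p under 0.05 in limma, against 4.59% and 3.90% of all genes tested. At the adjusted threshold 0 of them passed, as did 0 of all genes. Their median log2 fold change was 0.47, and their median against the MI mean was 0.55, 0.63 and 0.16 in DAPA rats 1 to 3. The difference between the cytosolic and the mitochondrial genes was not tested.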

How the data were processed

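Total RNA of left ventricles from 3 rats in each of 3 groups was poly-A selected and sequenced by the authors, with 3 biological replicates per group per the labels. The authors deposited FPKM values, 1 per gene and rat. The submitters' processing notes name HISAT2 2.0.5, StringTie 1.3.3b, featureCounts 1.5.0-p3 and DESeq2. The genome build is not given in the sources used here. How reads matching several genes were counted is not given either.

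The FPKM were tested as log2(FPKM + 1) with limma 3.58.1 in R 4.3.3 (trend in the empirical Bayes step), with only the 6 rats of the groups compared and no covariate. A gene entered when 3 or more of those rats reached an FPKM of 1, and p-values were adjusted by Benjamini-Hochberg over all of them. Fold changes on this scale understate those of low genes. Calls were made at an unadjusted p under 0.05 with an absolute log2 fold change over 1, and at the adjusted p. The fit was tried on simulated reads with libraries of equal size and the same spread for all genes. The libraries here differed in makeup, so that trial does not show how the fit behaves on them. Reads and gene lengths were recovered from the steps of the FPKM for 18896 of 18896 genes seen in at least 4 libraries (tolerance 0.02 reads), and the FPKM of the authors proved to carry a scaling between libraries, since median-of-ratios factors on them were 0.987 to 1.01. The libraries held 13597239 to 17210909 recovered reads, which limits counting error only. Alternatives covered the pseudocount, the filter, the scaling, the rats fitted, the replicate block and each rat left out. The sum of rows of the same name was chosen after seeing the data.

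The members and gene lists were chosen with earlier results of these data known, so no list was tested. Named were the 3 highest and 3 lowest members by mean, the 8 largest and 3 smallest changes in MI vs. Sham and in DAPA vs. MI, members with p under 0.05 against the sign of the median, members with a known role, and up to 4 genes per list by p in MI vs. Sham. Some genes that this rule names are not reported here. Other named genes were chosen after their values were seen. Sequences are from RefSeq (GRCr8), matched by symbol. The motifs were chosen after seeing the starts. Python 3.11.15 with numpy 2.4.6, pandas 2.3.3, scipy 1.17.1 and matplotlib 3.10.9 was used.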

Additional observations from a re-analysis of the deposited data

How the results depend on the processing

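The rescaling of each rat to a common FPKM sum moved the most values, since the mitochondrial mRNAs enter that sum. It moved all genes, whose median log2 fold change then stood at 1.301 in MI vs. Sham, -0.341 in DAPA vs. MI and 1.003 in DAPA vs. Sham. The share of all genes that passed under it was not counted, so the member counts below do not set the members apart from other genes. In MI vs. Sham the members past p under 0.05 and the fold criterion went from 1 to 59, those at p under 0.05 from 21 to 65, those at the adjusted p from 14 to 64, and the median from -0.16 to 1.39. In DAPA vs. MI the count at p under 0.05 went from 0 to 1 and the median from 0.13 to -0.23. In DAPA vs. Sham the same counts went from 0 to 42, from 5 to 62 and from 2 to 61, and the median from -0.04 to 1.15. Under this scaling the sign turned in MI vs. Sham for Rpl11 (1.01), Rpl13 (1.55), Rpl13a (1.15), Rpl17 (1.27), Rpl21 (1.54), Rpl26 (0.82), Rpl29 (1.26), Rpl31 (0.94), Rpl32 (0.94), Rpl35 (1.03), Rpl36a (1.52), Rpl8 (1.08), Rps15 (1.28), Rps19 (0.56), Rps21 (0.82), Rps25 (1.13) and Rps28 (0.71). It turned in DAPA vs. Sham for Rpl11 (0.85), Rpl13a (0.85), Rpl17 (0.90), Rpl26 (0.63), Rpl29 (1.17), Rpl31 (0.88), Rpl32 (0.70), Rpl35 (0.84), Rpl7a (0.84), Rps15 (1.02), Rps19 (0.94), Rps21 (0.66), Rps25 (1.03), Rps27a (0.95) and Rps28 (0.50).

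With the mitochondrial protein genes left out before rescaling, MI vs. Sham gave 13 members at p under 0.05, 8 at the adjusted p and a median of -0.10. In DAPA vs. Sham this setting gave 8 at p under 0.05. Centred on the members themselves, the counts past the fold criterion were 2, 1 and 1 in MI vs. Sham, DAPA vs. MI and DAPA vs. Sham. That centring gave 1 member at p under 0.05 in DAPA vs. MI, and 12 at p under 0.05 and 4 at the adjusted p in DAPA vs. Sham. With no filter on low values, 9 members passed the adjusted p in MI vs. Sham and 0 in DAPA vs. Sham. A pseudocount of 0.1 left 1 in DAPA vs. Sham, and a fit of all 9 rats gave 8 at p under 0.05 there. The cause of these shifts was not tested.

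The labels do not say whether rats of the same replicate number belong together. Their deviations from the group means correlated at -0.304 to 0.195, which with 3 rats per group cannot settle it. A fit with the replicate block has more terms and less power, so a call lost with it does not show a pairing. With the replicate block, the members at the adjusted p in MI vs. Sham numbered 7 (2 higher, 5 lower). The block gave 1 member past the fold criterion and 1 at p under 0.05 in DAPA vs. MI, and 3 at p under 0.05 and 1 at the adjusted p in DAPA vs. Sham.

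Leaving out 1 rat at a time gave, in MI vs. Sham, 1 to 3 members past the fold criterion, 13 to 19 at p under 0.05 and 3 to 10 at the adjusted p. In DAPA vs. MI it gave 0 to 1, 0 to 11 and 0, and in DAPA vs. Sham 0 to 1, 1 to 18 and 0 to 7. The shares of all genes that passed in these fits were not counted. The medians of the members ran from -0.01 to 0.33 in DAPA vs. MI. Of 1683 comparisons of a named gene with an alternative, 1434 kept direction and side of the adjusted threshold, 71 lost and 37 gained the threshold, 109 changed sign without a call, and 32 changed sign with a call on at least 1 side. A p that misses the threshold does not show that the groups were alike.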
